A study of Sus scrofa with 57 samples.

Results

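Solute carriers are membrane proteins that move small molecules across the membranes of the cell and of its organelles. Named families carry amino acids, sugars, fatty acids, ions, metals or nucleotide sugars, and the SLC25 family sits largely in the inner mitochondrial membrane, where it exchanges ADP for ATP, brings in phosphate and exports citrate for fatty acid synthesis. In a fat cell these proteins link the supply of glucose, amino acids and lipids to storage and to mitochondrial metabolism. Members were selected on their measured level: every gene identifier whose name in the deposited tables begins with the solute carrier pattern (SLC, a family number, A and a member number) and whose mean FPKM over the 11 RNAseq libraries was at least 1, without the insulin-responsive glucose transporter SLC2A4. FPKM counts sequenced fragments per kilobase of transcript, relative to all fragments mapped in a library. Of 25285 gene identifiers, 278 had such a name, 172 of these lay below the mean FPKM of 1 and 2 were named SLC2A4, which left 104 members with 100 different names. The level chose the members over both groups together, and so the levels below are given as a description. SLC4A2, SLC37A3 and SLC9A8 were the members just inside the threshold, with mean FPKM of 1.05, 1.07 and 1.08, and SLC19A1, SLC35A2 and SLC36A1 lay just outside it at 0.968, 0.939 and 0.881.

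RNAseq libraries came from mature adipocytes of 5 lean and 5 obese male pigs, 11 libraries in all, because 2 were assigned to obese pig-572. The description of the second of these carries another pig number, so its assignment to pig-572 is an inference. The pigs were F2 animals of an intercross between Duroc and Göttingen minipigs, picked for the lean and obese extremes, and their adipocytes were freed from retroperitoneal fat by collagenase and collected by floating. The labels name no genetic change or drug in either group. Methylation was measured in adipocyte DNA of the same animals and of further pigs of both sexes, by capture of methylated fragments (mDNAcap) and by reduced representation bisulfite sequencing (RRBS). The libraries of pig-572 differed by a median of 0.08 on the log2 scale over the members, against 0.174 to 0.489 between libraries of different pigs, and were averaged. Between 8950 and 10291 genes had an FPKM of at least 1 in a library, the lowest number being that of the second library of pig-572. The median uncertainty that cufflinks gave for a member within a library was 3.78% to 5.37% of its value.

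The adipocyte label was checked against marker genes. PLIN1, LIPE, PPARG, CEBPA and LEP were the 5 of 10 listed adipocyte markers found by name. They summed to 468 to 697 FPKM in lean and 667 to 846 FPKM in obese pigs. Of them 2 (LEP and CEBPA) were higher in obese pigs at an unadjusted limma p under 0.05, against 10.6% of all genes tested. The macrophage and leukocyte markers summed to at most 4.84 FPKM, with CD163 at 0 in every pig, and the skeletal muscle markers to at most 1.03 FPKM. Markers of stroma, led by the collagen gene COL3A1, summed to 225 to 688 FPKM in lean and 248 to 616 FPKM in obese pigs, with none of 5 identifiers tested under the threshold. Endothelial markers summed to 1.48 to 12.2 and 3.34 to 8.32 FPKM, and erythroid markers to 13.3 to 81.6 and 15.7 to 39.9 FPKM. Genes known to respond to tissue dissociation, such as FOS and JUN, summed to 555 to 1804 FPKM in lean and 280.0 to 968 FPKM in obese pigs. Of the 11 tested, 5 were lower in obese pigs at an unadjusted limma p under 0.05, against 10.3% of all genes tested. The part of these markers in the differences below was not tested, and in bulk samples fewer cells of a type and less RNA per cell cannot be told apart.

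Levels spanned a wide range. After scaling by size factors, 2 members had a mean over the 10 pigs of at least 100 FPKM, 26 lay between 10 and 100, 51 between 2 and 10 and 25 under 2. The 32 carriers of the SLC25 family, classed together as mitochondrial carriers although SLC25A17 is peroxisomal, made up 65.1% of the summed FPKM of the members, the 12 carriers of amino acids and peptides 10.3% and the 15 carriers of zinc, iron, copper and heme 7.71%. Next came 16 carriers of inorganic ions and pH with 4.41%, 12 sugar carriers with 4.08%, 2 carriers of carboxylates with 2.37%, 1 vitamin carrier with 1.93% and 4 carriers of nucleosides and nucleotide sugars with 1.82%. Carriers of fatty acids, lipids and choline numbered 6 and held 1.10%, and the 2 carriers of organic ions and hormones held 0.342%. The last 2 members, SLC4A1AP and SLC9A3R2, match the naming pattern but are adaptor proteins named after carriers they bind, with 0.851%. The 5 highest members alone held 42.6%.

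**Figure D1:**
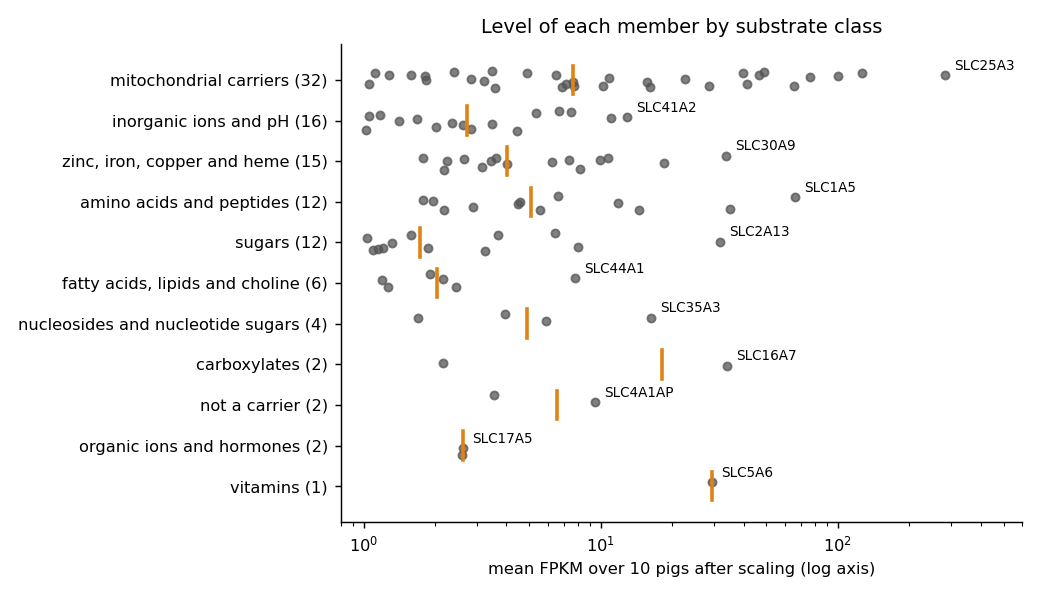
Each grey point is 1 member, placed by its mean FPKM over the 10 pigs after scaling (horizontal log axis) within its substrate class (vertical, with the number of members), and orange bars are class medians. The highest member of each class is named, and SLC25A3 stands at the far right with a mean of 282 FPKM.

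SLC25A3, which carries phosphate into mitochondria for ATP synthesis, was the member with the highest level. Its FPKM was 352, 291, 287, 266 and 364 in lean pig-402, pig-407, pig-413, pig-525 and pig-577, and 254, 261, 199, 265 and 283 in obese pig-433, pig-473, pig-524, pig-529 and pig-572, the order in which values per pig are listed throughout. Of the 5 obese pigs, 4 lay below the lowest lean pig. The difference was -0.30 ± 0.15 (SE) on the log2(FPKM + 1) scale and its 95% interval reached from -0.63 to 0.02, with an adjusted p of 0.266 by limma, while the two-sided exact permutation test, which takes every way to split 10 pigs into equal groups, gave p = 0.0159. A locus of the small nucleolar RNA SNORA53, listed at a mean FPKM of 175, lies inside that of SLC25A3. Second stood SLC25A1, the citrate carrier that supplies carbon for fatty acid synthesis in the cytosol. It had 174, 141, 65.7, 112 and 155 FPKM in lean and 185, 92.3, 92.7, 129.9 and 121 FPKM in obese pigs, so the groups overlapped over most of their range and the difference of -0.04 had an interval from -0.66 to 0.59. SLC25A17, a peroxisomal carrier of cofactors such as coenzyme A, followed with a mean of 99.9 FPKM. Its neighbour in the order was SLC25A6 on an unplaced scaffold at 76.4 FPKM, then came the glutamine carrier SLC1A5 at 66.2 FPKM and the ADP/ATP carrier SLC25A4 at 65.1 FPKM. SLC25A20, which brings acylcarnitines into mitochondria for oxidation, had a mean of 46.4 FPKM.

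Members differed in how much they varied between pigs. Over the 10 pigs the coefficient of variation had a median of 0.249, against 0.212 over all 10197 genes tested. The steadiest members were SLC25A30 with 0.0701, SLC1A5 with 0.0930 and the zinc carrier SLC30A7 with 0.109. At the other end stood the glucose transporter SLC2A3 with 0.660, the fatty acid transport protein SLC27A1 with 0.621 and the glucose 6-phosphate carrier SLC37A4 with 0.610.

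Lean and obese pigs were compared by limma on log2(FPKM + 1) over 10197 genes that passed the same minimum of 1 FPKM. No member had an adjusted p under 0.05 (Benjamini-Hochberg over all genes tested), and 1 gene in all, or 0.00981%, did. The lowest adjusted p among the members was 0.0974. At an unadjusted p under 0.05, 21 members (20.2%) differed, against 20.9% of all genes tested. Of these, 12 (11.5%) were higher in obese pigs, against a background of 10.6%, and 9 (8.65%) were lower, against 10.3%. The exact permutation test gave 23 members under 0.05. The share of all genes was not counted for this test, so the 23 have no background here. The groups did not overlap at 3 members, 2 of them higher in obese pigs, where the background was 2.34%, and 1 lower, where it was 1.79%. These shares are near those of all genes. The median difference over the members was 0.03 on the log2 scale, with 55 above and 49 below 0, and over all genes tested it was -0.0011. Differences were small in size: 7 members exceeded 0.5 on the log2 scale in either direction and none exceeded 1, while the 95% interval of a member reached a median of 0.333 to either side. For 2 members (SLC37A3 and SLC2A11) the lean mean was under 1 FPKM and for 2 others (SLC25A12 and SLC2A3) the obese mean was, so these were members through the level of 1 group. Members SLC6A6, SLC38A10 and SLC44A1 are named below because their groups did not overlap, and the others because they had the 8 largest differences in either direction under the unadjusted threshold, the highest levels of a class, or a methylation region.

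**Figure D2:**
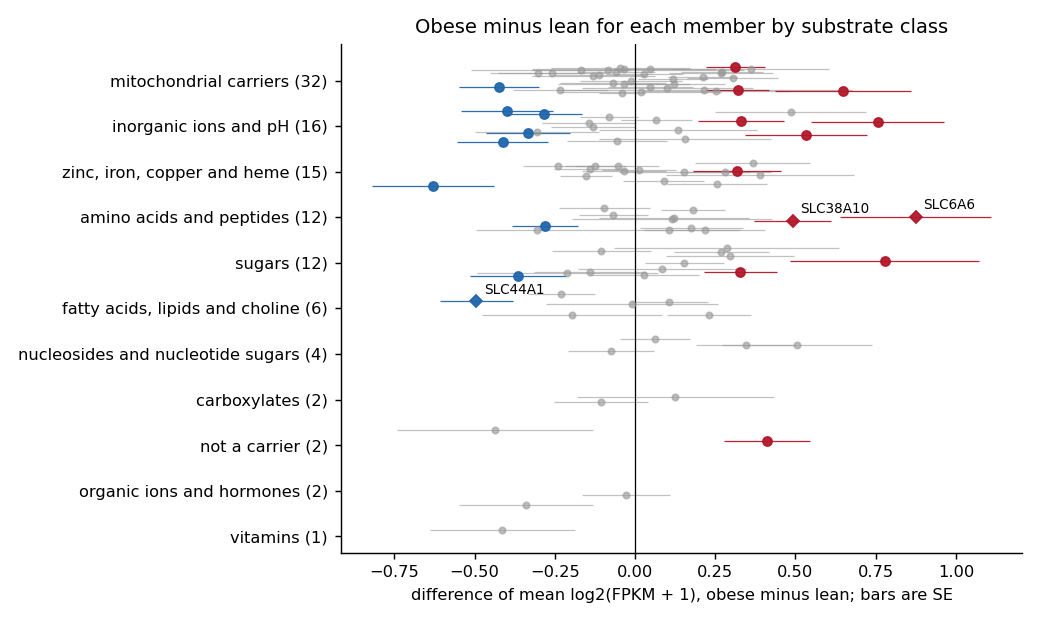
Each point is 1 member, placed by the difference of its mean log2(FPKM + 1), obese minus lean (horizontal axis), within its substrate class (vertical axis, with the number of members), and bars are SE. Red and blue mark an unadjusted limma p under 0.05 and diamonds the 3 members without overlap, SLC6A6 and SLC38A10 to the right and SLC44A1 to the left of 0.

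Among the 12 carriers of amino acids and peptides, 2 were higher and 1 was lower in obese pigs at the unadjusted threshold. Of all genes tested, 10.6% were higher and 10.3% lower. The median difference of the class was 0.12. SLC6A6, which takes up taurine with sodium and chloride, had the largest difference of all members. Its FPKM was 1.46, 1.76, 0.212, 1.04 and 1.05 in lean and 2.13, 1.79, 4.35, 3.18 and 2.67 in obese pigs. Every obese pig lay above every lean pig, although the lowest obese pig (1.79) stood close to the highest lean pig (1.76) and lean pig-413 was far below the rest. The means were 1.11 ± 0.583 and 2.82 ± 1.003 FPKM (SD, n = 5 each). The difference was 0.87 ± 0.24 (SE) with a limma adjusted p of 0.125, and the exact permutation p of 0.00794 is the smallest that 5 against 5 pigs allow. Leaving out 1 pig at a time left it between 0.69 and 0.99, under the unadjusted threshold in all 10 fits. Of the 8 other alternatives in processing that tested SLC6A6, 7 kept its groups without overlap. SLC38A10, a member of the family of sodium-coupled neutral amino acid transporters, had 3.85, 3.35, 2.56, 3.87 and 4.28 FPKM in lean and 5.90, 5.01, 6.09, 4.43 and 5.62 FPKM in obese pigs. Here too the groups did not overlap, with a difference of 0.49 ± 0.12 (SE), a limma adjusted p of 0.110 and an exact permutation p of 0.00794. Without size factors the groups of SLC38A10 overlapped, at a difference of 0.47 that remained under the unadjusted threshold.

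The lower member of that class was SLC38A9, which senses and releases arginine at the lysosome and is named here, outside the naming rule, after its values were seen. It had 3.28, 3.13, 2.81, 3.85 and 3.20 FPKM in lean and 1.90, 2.42, 3.02, 2.74 and 2.49 FPKM in obese pigs, a difference of -0.28 ± 0.10 (SE) with 4 obese pigs below the lowest lean pig. The limma adjusted p was 0.182, and SLC38A9 was not under the unadjusted threshold without size factors. The carriers with the highest level of the class were not under the threshold. SLC1A5, which exchanges glutamine and other neutral amino acids, had 62.0 ± 3.28 FPKM in lean and 70.5 ± 5.41 FPKM in obese pigs (SD, n = 5 each). In 4 of 5 obese pigs it stood above the highest lean pig, and the limma adjusted p was 0.311 at an exact permutation p of 0.0238. SLC1A3, a sodium-coupled glutamate transporter, had 33.1 ± 6.75 and 37.2 ± 5.40 FPKM (SD, n = 5 each) with wide overlap. SLC3A2 and SLC7A7, which pair as heavy and light chain of an exchanger of basic and neutral amino acids, differed by 0.10 and -0.10 on the log2 scale.

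Sugar carriers were next in the size of a single difference. Of 12 of them, 2 were higher and 1 was lower at the unadjusted threshold, against 10.6% and 10.3% of all genes. SLC2A13, which takes up myo-inositol with protons, was split over a pair of identifiers on chromosome 5. The one with the higher level, ENSSSCG00000024523 (Sscrofa10.2 chromosome 5, 73929817 to 74023533), had 28.1, 28.8, 29.6, 18.5 and 11.8 FPKM in lean and 38.2, 44.1, 43.9, 53.8 and 21.6 FPKM in obese pigs. Obese pig-572 lay within the lean range as the mean of its libraries, which had 13.1 and 30.1 FPKM, the second above the highest lean pig, and the other 4 obese pigs lay above the lean range. The difference of 0.78 ± 0.30 (SE) had a limma adjusted p of 0.191 and an exact permutation p of 0.0476, and 5 of the 10 fits that left out a pig (pig-473, pig-524, pig-525, pig-529 or pig-577) did not keep it under the unadjusted threshold, with values from 0.56 to 0.98. It was not under that threshold without size factors, nor without the second library of pig-572. The other identifier, ENSSSCG00000000783, had a level 10.5 to 30.7 times lower and a difference of 0.27, so the share of reads that each received is uncertain. SLC2A11, a fructose and glucose transporter of low level, is named after its values were seen, with 0.959 ± 0.267 and 1.45 ± 0.226 FPKM (SD, n = 5 each) and a difference of 0.33. It passed the minimum of 1 FPKM through its level in obese pigs, so the choice of members favoured that direction.

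SLC50A1, a sugar transporter found largely at the Golgi, was the lower member of the class. It had 2.54, 3.92, 5.03, 3.56 and 4.01 FPKM in lean and 2.92, 3.10, 1.91, 3.21 and 2.45 FPKM in obese pigs, and 2 obese pigs lay below the lowest lean pig. Its difference was -0.36 ± 0.15 (SE) and 5 of the 10 fits that left out a pig (pig-407, pig-413, pig-524, pig-572 or pig-577) did not keep it under the threshold. SLC5A3, a sodium-coupled myo-inositol carrier with the second highest level of the class, had 7.70 ± 2.24 and 8.37 ± 2.99 FPKM (SD, n = 5 each). The glucose transporters SLC2A1, SLC2A3 and SLC2A12 differed by -0.14, -0.21 and -0.10 on the log2 scale, none of them under the threshold. Summed over the class, sugar carriers reached 41.0 to 64.4 FPKM in lean and 46.0 to 83.3 FPKM in obese pigs, and these ranges overlapped.

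Carriers of inorganic ions and pH held 7 members of 16 under the unadjusted threshold, against 20.9% of all genes, with 3 higher and 4 lower in obese pigs. Of the 7, 2 are the paired identifiers of SLC9A9, and without size factors 2 were higher and 2 lower. The higher ones move potassium, chloride or magnesium. SLC12A7, which lets potassium and chloride leave the cell together, had 11.2, 8.35, 5.01, 7.04 and 8.14 FPKM in lean and 14.6, 9.57, 17.8, 11.7 and 16.6 FPKM in obese pigs. In 4 of 5 obese pigs it exceeded the highest lean pig. The difference of 0.76 ± 0.21 (SE) had a limma adjusted p of 0.127 and an exact permutation p of 0.0159. SLC12A2, which brings sodium, potassium and chloride into the cell, had 0.906, 1.59, 1.34, 1.54 and 1.82 FPKM in lean and 2.32, 1.29, 3.92, 2.51 and 3.01 FPKM in obese pigs. Obese pig-473 lay within the lean range and the other 4 above it, at a difference of 0.53 ± 0.19 (SE). SLC41A2, a magnesium transporter, had 11.3 ± 1.62 and 14.5 ± 2.51 FPKM (SD, n = 5 each) and a difference of 0.33, which 6 of the 10 fits that left out a pig (pig-402, pig-407, pig-473, pig-524, pig-525 or pig-572) and the fit without size factors did not keep under the threshold.

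The lower ion carriers exchange sodium for protons or bring in bicarbonate. SLC9A9, a sodium/proton exchanger of endosomes, was annotated as a pair of neighbouring identifiers on chromosome 13, and both were lower in obese pigs. ENSSSCG00000022733 had 5.20, 3.87, 6.51, 4.76 and 5.58 FPKM in lean and 3.19, 4.72, 3.93, 3.74 and 2.69 FPKM in obese pigs, and ENSSSCG00000011686 had 7.72 ± 1.03 and 5.68 ± 1.37 FPKM (SD, n = 5 each). With differences of -0.41 and -0.40 and a ratio of the identifiers between 1.32 and 1.83 in every pig, they are not independent observations, and neither was under the threshold without size factors. SLC4A7, which brings sodium and bicarbonate into the cell, had 2.55, 2.34, 4.54, 3.01 and 2.97 FPKM in lean and 2.12, 2.498, 1.87, 2.17 and 2.31 FPKM in obese pigs. The difference of -0.33 ± 0.13 (SE) was lost without obese pig-524, where it was -0.30, and lean pig-413 had the highest value. SLC26A11, a pair of identifiers on chromosome 12 whose ratio stayed between 1.14 and 1.23 in every pig, differed by 0.13 and 0.16 and is uncertain for the same reason.

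**Figure D3:**
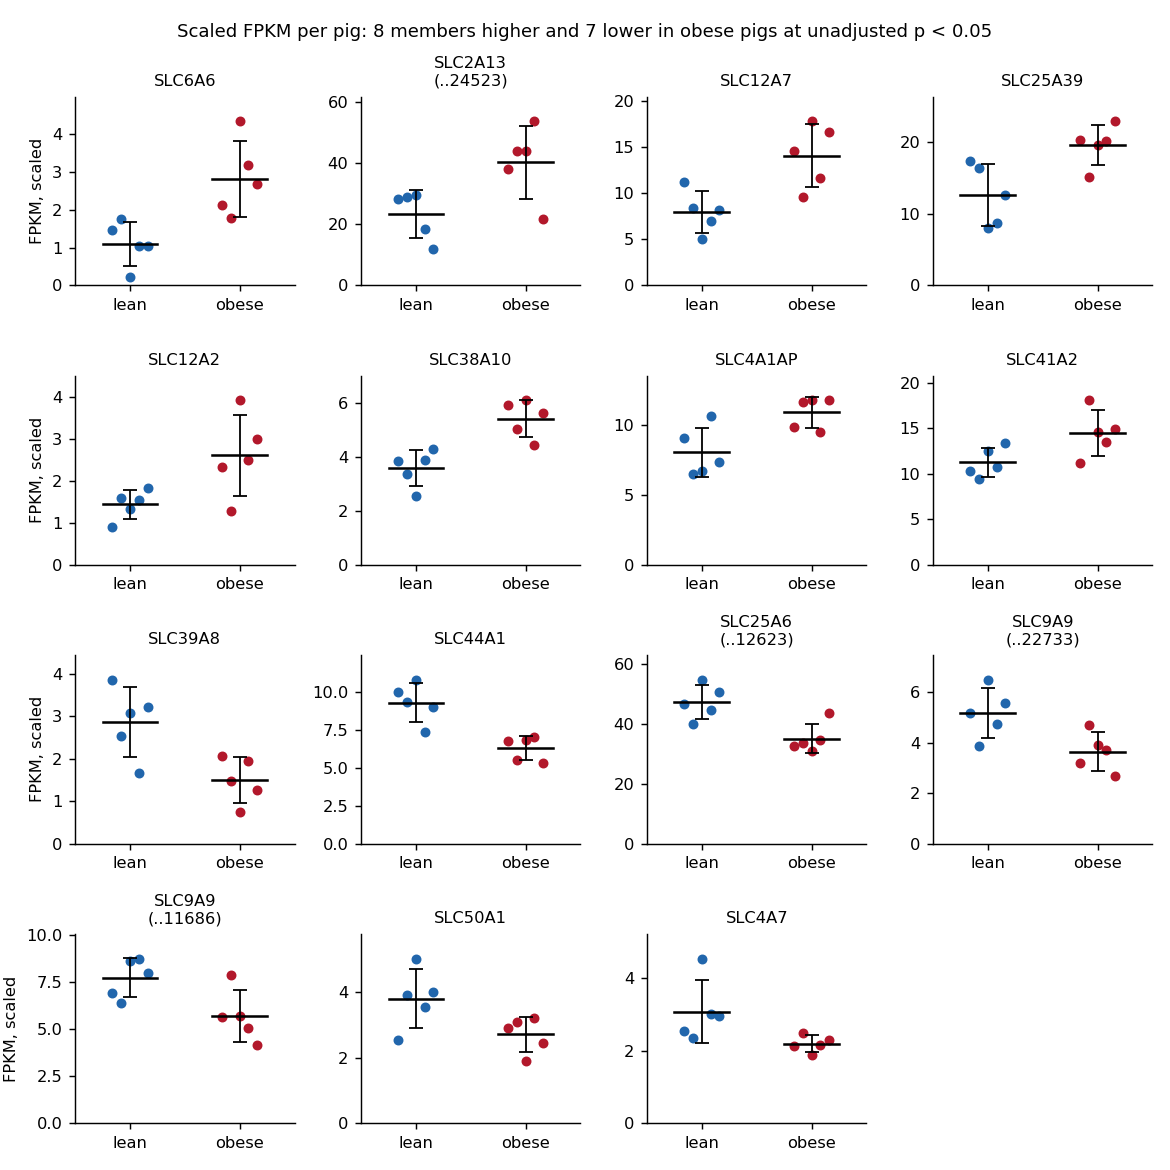
Scaled FPKM (vertical axis, linear and starting at 0) of each lean (blue) and obese (red) pig for the 8 members with the largest positive and 7 of those with the largest negative difference under the unadjusted threshold, with black lines for mean and SD of 5 pigs. The groups of SLC6A6, SLC38A10 and SLC44A1 do not overlap, and those of the other 12 panels do.

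Carriers of the SLC25 family were the largest class, with 3 higher and 1 lower of 32 at the unadjusted threshold, against 10.6% and 10.3% of all genes. Summed over the class they had 1041 ± 129.6 FPKM in lean and 951 ± 84.9 FPKM in obese pigs (SD, n = 5 each), and the ranges overlapped. SLC25A39, which carries glutathione into mitochondria, had the largest difference of the class. It had 17.3, 16.3, 7.98, 8.66 and 12.7 FPKM in lean and 20.2, 15.1, 19.6, 20.2 and 22.9 FPKM in obese pigs. Lean pig-413 and pig-525 were lowest and 4 obese pigs lay above every lean pig, with a difference of 0.65 ± 0.21 (SE), a limma adjusted p of 0.1604 and an exact permutation p of 0.0238. SLC25A38, the glycine carrier needed for heme synthesis, and SLC25A32, which carries folate, are named after their values were seen. SLC25A38 had 8.96 ± 0.749 and 11.5 ± 1.30 FPKM (SD, n = 5 each) and was under the threshold except without size factors. SLC25A32 had 3.01 ± 0.394 and 3.97 ± 0.405 FPKM (SD, n = 5 each), and 4 of 5 obese pigs lay above the highest lean pig for either gene.

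Of the ADP/ATP carriers, 3 identifiers were members and 1 was under the threshold. The identifier on chromosome X named SLC25A6 in the deposited tables, ENSSSCG00000012623, is SLC25A5 in the reference list of gene names. It had 46.6, 40.01, 54.8, 44.7 and 50.8 FPKM in lean and 32.6, 33.8, 30.9, 34.8 and 43.5 FPKM in obese pigs, where obese pig-572 lay within the lean range and the other 4 below it. The difference was -0.42 ± 0.13 (SE) with a limma adjusted p of 0.139 and an exact permutation p of 0.0159. SLC25A4 and the SLC25A6 identifier on the scaffold differed by -0.23 and -0.13 and were not under the threshold. These carriers resemble each other in sequence, so reads may be split between them and the single values are uncertain. Some carriers varied widely within both groups: SLC25A33, a pyrimidine nucleotide carrier, ran from 14.5 to 73.5 FPKM in lean and from 22.6 to 76.6 FPKM in obese pigs, and SLC25A34 from 9.91 to 41.6 and from 9.44 to 48.4 FPKM. The highest of these was pig-572, whose libraries had 32.3 and 64.5 FPKM for SLC25A34. SLC25A21 was listed at about 1 FPKM in both groups, and its identifier carries the name of another gene, PAX9, in the reference list.

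Carriers of zinc, iron, copper and heme had 1 member higher and 1 lower of 15, against 10.6% and 10.3% of all genes. SLC39A8, which takes up zinc and manganese, showed the largest negative difference of all members. Its FPKM was 3.86, 2.52, 3.07, 1.66 and 3.22 in lean and 2.06, 1.48, 0.747, 1.95 and 1.26 in obese pigs. Lean pig-525 lay within the obese range, and 3 obese pigs lay below every lean pig. The difference of -0.63 ± 0.19 (SE) had a limma adjusted p of 0.142 and an exact permutation p of 0.0238, and it kept its side of the threshold in all 10 fits that left out a pig. SLC39A9, a zinc carrier of the Golgi and plasma membrane named after its values were seen, had 8.83 ± 2.04 and 11.1 ± 1.16 FPKM (SD, n = 5 each). Its difference of 0.32 was lost in 7 of these 10 fits (without pig-407, pig-413, pig-433, pig-524, pig-525, pig-572 or pig-577) and without size factors. The highest of the class, SLC30A9, had 43.5, 28.8, 22.4, 31.4 and 23.1 FPKM in lean and 32.5, 38.7, 42.5, 33.4 and 42.4 FPKM in obese pigs, with lean pig-402 above all obese pigs. SLC30A5, which loads zinc into the Golgi, had 15.9 ± 5.85 and 21.2 ± 7.002 FPKM (SD, n = 5 each).

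Of the 6 carriers of fatty acids, lipids and choline, 1 was under the threshold and was lower, against 10.3% of all genes. SLC44A1, which takes up choline for phosphatidylcholine synthesis, had the lowest adjusted p of all members. It had 9.97, 9.29, 10.8, 7.36 and 9.01 FPKM in lean and 6.77, 5.51, 6.83, 7.005 and 5.34 FPKM in obese pigs. All obese pigs lay below all lean pigs, the nearest being obese pig-529 and lean pig-525. The means were 9.28 ± 1.28 and 6.29 ± 0.797 FPKM (SD, n = 5 each), the difference was -0.49 ± 0.11 (SE), the limma adjusted p 0.0974 and the exact permutation p 0.00794. Without size factors the difference was -0.51 and the groups overlapped. The fatty acid transport proteins SLC27A1, SLC27A4 and SLC27A6 differed by -0.01, 0.23 and -0.20, and none was under the threshold. SLC27A4 had 2.16 ± 0.380 and 2.73 ± 0.614 FPKM (SD, n = 5 each).

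The remaining carriers had no member under the threshold. SLC5A6, which takes up biotin and pantothenate, had 39.1, 25.4, 30.4, 32.4 and 40.2 FPKM in lean and 36.0, 30.4, 15.1, 26.6 and 20.2 FPKM in obese pigs. Its difference was -0.41 ± 0.22 (SE) with an interval from -0.91 to 0.08. SLC16A7, a monocarboxylate carrier, had 35.6 ± 6.83 and 32.5 ± 2.92 FPKM (SD, n = 5 each), and SLC16A13 of the same family 2.04 ± 1.30 and 2.27 ± 1.25 FPKM. SLC35A3, which brings UDP-N-acetylglucosamine into the Golgi, had 14.2 ± 2.37 and 18.4 ± 3.92 FPKM (SD, n = 5 each) at an exact permutation p of 0.0794. SLC35A1, the carrier of CMP-sialic acid, had 6.07 ± 1.33 and 5.65 ± 0.789 FPKM. The organic cation transporter SLC22A3 had 3.06 ± 1.12 and 2.16 ± 0.697 FPKM, and the lysosomal sialic acid carrier SLC17A5 had 2.65 ± 0.466 and 2.60 ± 0.687 FPKM. Of the adaptor proteins, SLC4A1AP was higher, with 8.04 ± 1.76 and 10.9 ± 1.14 FPKM (SD, n = 5 each) and a difference of 0.41 that was lost without size factors. SLC9A3R2 had 4.03 ± 0.972 and 3.08 ± 2.36 FPKM, with obese pig-473 at 7.13 and lean pig-407 next at 5.29.

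Proteins that work beside solute carriers, from a list of 36 names, were found for 30 names, and 18 identifiers were tested. Of these, 2 were higher and none was lower at the unadjusted threshold, against 10.6% and 10.3% of all genes tested. The median difference was -0.02. AQP7, the channel through which glycerol leaves adipocytes, had 28.3 ± 2.69 FPKM in lean and 49.7 ± 8.65 FPKM in obese pigs (SD, n = 5 each). The lowest obese pig (35.4) lay above the highest lean pig (31.8), with a difference of 0.78 ± 0.14 (SE), a limma adjusted p of 0.0771 and an exact permutation p of 0.00794. CLCN7, a lysosomal chloride/proton exchanger, was the other one, with 1.07 ± 0.251 and 1.61 ± 0.355 FPKM (SD, n = 5 each). Among the partners below the minimum of 1 FPKM, which were not tested, ATP1B1 was lower in every obese than in every lean pig. It had 0.807 to 2.41 FPKM in lean and 0.348 to 0.651 FPKM in obese pigs, and is named after its values were seen. The fatty acid uptake protein CD36 had 1381 ± 176 and 1148 ± 441 FPKM (SD, n = 5 each), BSG, the chaperone of monocarboxylate carriers, 41.6 ± 8.27 and 40.3 ± 4.22 FPKM, and BRP44, a subunit of the mitochondrial pyruvate carrier, 356 ± 75.0 and 343 ± 47.0 FPKM, and their groups overlapped.

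Methylation at the members was read from regions that the authors had called between lean and obese animals, so the difference between groups chose the regions and their values are described without a test. A captured region lay on the locus of 17 members (16.3%), against 10.2% of all genes tested, and the loci of members were longer, with a median of 27626 bases against 16157 bases over all genes tested. The 17 members with a captured region had a median locus of 45965 bases and the 87 without one 26271 bases. Of the 17, 5 were under the unadjusted threshold of expression, and of the 87, 16 were, against 20.9% of all genes tested. A link between regions and expression was not tested. There were 22 captured regions, 11 with a higher and 11 with a lower mean normalized read count in obese animals. Among all 7401 deposited captured regions, inside and outside genes, 5236 were lower and 2165 higher. The paper describes losses in obese animals as mainly intergenic and gains as more pronounced in or near genes. Directions over all regions on genes were not counted here, so the 22 are not set against a like background. The comparison holds 11 libraries on either side, with 4 females on the obese and 3 on the lean side. The lean side includes pig-411, whose label says obese, and the values are not tied to animals, so it could not be left out. The paper counts 11 lean animals and 4 obese females, as the sides do with pig-411 as lean, so its label may be the item in error. No region separated the sides fully. Mean read counts per 1000 bases ran from 0.44 to 4.1 between obese and from 0.63 to 7.04 between lean libraries, so the regions rest on shallow and uneven depth. Dividing the counts by the median of ratios over the regions raised the log2 ratio of obese to lean by a median of 0.31, less than the distance of any of the 22 regions from 0, so this scaling could not turn a direction.

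**Figure D4:**
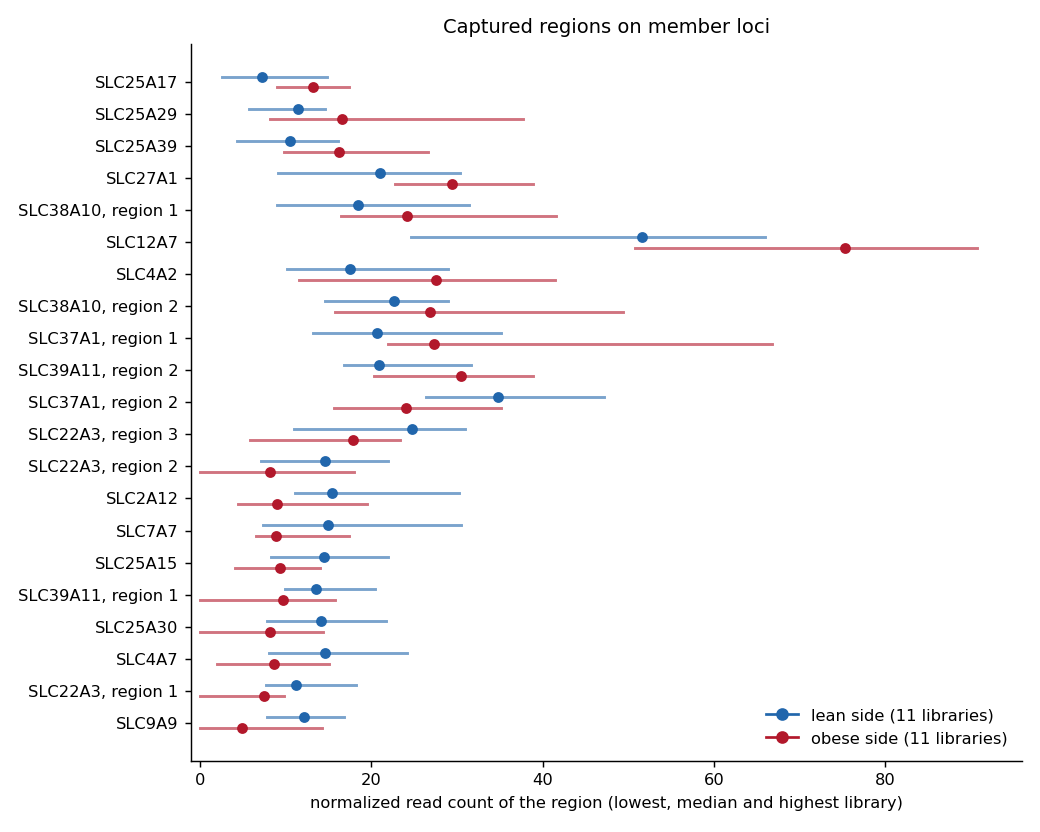
Normalized read counts of 21 of the 22 captured regions on member loci (horizontal axis), ordered by the ratio of obese to lean means, with lines from the lowest to the highest of 11 libraries and points at the median for the lean (blue) and obese (red) side. The lines of the sides overlap at every region shown, and SLC12A7 has the highest counts, with medians of 51.6 and 75.3.

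SLC38A10 was the member whose expression did not overlap between groups and whose locus carried regions of both methylation assays. The locus spans 1374295 to 1425439 on chromosome 12 of Sscrofa10.2, and the exons and strand were not used here. Its first captured region, 1401601 to 1402700, had a lowest, median and highest normalized read count of 9.0, 18.4 and 31.4 in lean and 16.5, 24.1 and 41.5 in obese libraries. The second, 1413601 to 1414700, had 14.6, 22.6 and 29.0 in lean and 15.8, 26.9 and 49.4 in obese libraries. Both were higher in obese animals, and 9 and 10 of 11 obese libraries lay above the lean median. The RRBS region of at least 5 pigs per group, 1383217 to 1383292 with 10 CpGs, had an authors' mean of 35.9% in obese and 12.9% in lean pigs. A further region of the looser RRBS table, 1420583 to 1420784, had 52.9% and 38.2%. All 4 regions were thus higher in obese animals, as was the FPKM of the gene.

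At SLC12A7 (chromosome 16, 86015929 to 86038151) the captured region, 86037901 to 86040200, crossed the upper end of the locus into that of CLPTM1L. It had 49.4 ± 12.1 in lean and 72.4 ± 14.0 normalized reads in obese libraries (SD, n = 11 each), and 7 obese libraries exceeded the highest lean one. With less than 50% of its length on the locus, it was not counted where at least that share was required. An RRBS region of the looser table within the locus, with 10 CpGs, had authors' means of 52.6% in obese and 40.5% in lean pigs. SLC39A11, a zinc transporter with a locus of 347897 bases, carried 1 captured region that was lower (8.47 ± 4.93 against 14.9 ± 4.34) and 1 that was higher in obese animals (29.5 ± 6.11 against 21.1 ± 4.42, SD, n = 11 each). Its RRBS region of 11 CpGs, 8264810 to 8264893, lay between them and was higher, at 46.1% against 19.6%. SLC37A1, which exchanges glucose 6-phosphate for phosphate, also carried 1 captured region of each direction, 31.9 ± 12.8 against 22.7 ± 6.76 and 24.7 ± 5.78 against 36.1 ± 5.52 (SD, n = 11 each), and an RRBS region of the looser table at 70.3% in obese and 36.8% in lean pigs. The FPKM of SLC39A11 and SLC37A1 differed by 0.28 and 0.15 on the log2 scale, not under the threshold.

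**Figure D5:**
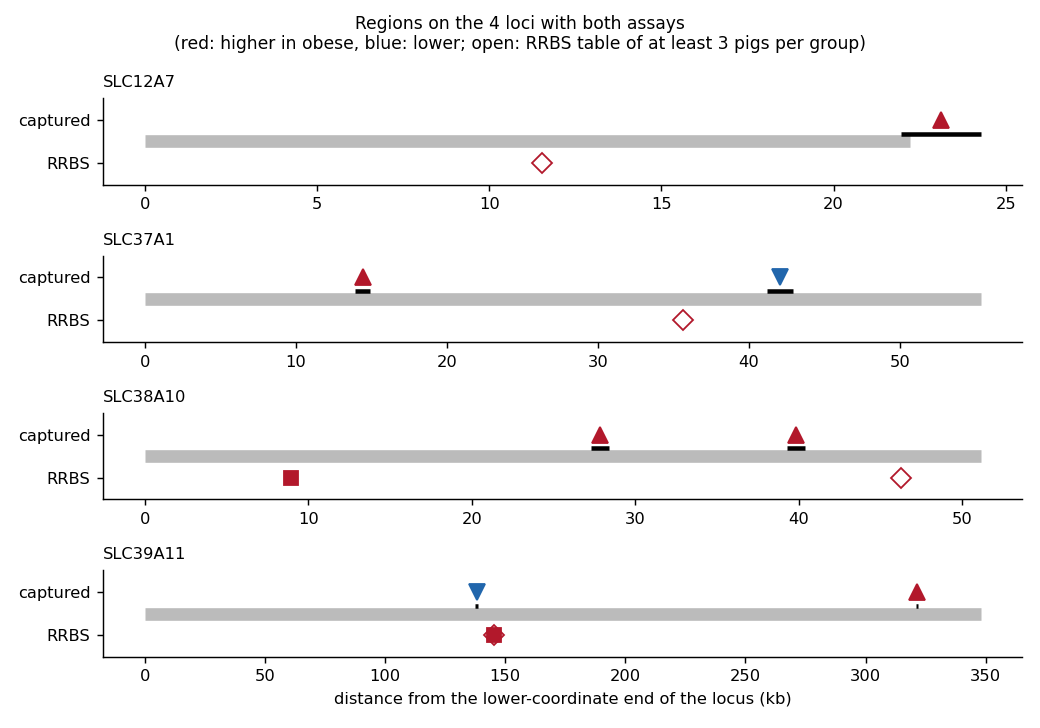
Grey bars are the loci of SLC12A7, SLC37A1, SLC38A10 and SLC39A11 to scale (horizontal axis, distance in kb from the end with the lower coordinate), with captured regions above (black bars, triangles at their middle) and RRBS regions below. Red marks higher and blue lower values in obese animals, open diamonds stand for the looser and filled squares for the stricter RRBS table, and the 4 symbols at SLC38A10 are all red.

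Captured regions with a higher count in obese animals also lay, among others, on SLC25A17, SLC25A29, SLC25A39, SLC27A1 and SLC4A2. At SLC25A39 the region of 1000 bases lay inside a locus of 3226 bases and had 4.39, 10.5 and 16.1 normalized reads in lean and 9.78, 16.3 and 26.6 in obese libraries, lowest, median and highest. At SLC27A1 the region crossed the lower end of the locus, with 19.6 ± 6.17 in lean and 29.7 ± 5.61 in obese libraries (SD, n = 11 each), and all 11 obese libraries lay above the lean median. Lower counts were found on SLC22A3, SLC25A15, SLC25A30, SLC2A12, SLC4A7, SLC7A7 and the SLC9A9 identifier ENSSSCG00000022733. SLC22A3 carried 3 of them, with obese medians of 7.52, 8.19 and 17.9 against lean medians of 11.2, 14.6 and 24.8. SLC9A9 had 6.32 ± 4.51 in obese and 12.2 ± 3.37 in lean libraries, and SLC4A7 had 9.02 ± 3.73 and 16.0 ± 4.56 (SD, n = 11 each). Of the 10 members with a higher captured region, 7 had a positive difference of expression, and of the 9 with a lower one, 2 did, with SLC37A1 and SLC39A11 in both counts.

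RRBS regions of the table that asked for at least 5 pigs per group lay on 4 members (3.85%), against 1.11% of all genes tested. Those of the looser table of at least 3 pigs lay on 10 members (9.62%), against 4.15%. Loci of members were longer here too, with a median of 27626 against 16157 bases. The part of locus length in these shares was not tested, and the first share rests on 4 genes. The tables hold group means without values per animal, and the coverage behind each value is not in them, beyond the minimum of 5 reads that the methods asked for at a CpG. The order of the groups was read from the name of the comparison. Beside SLC38A10 and SLC39A11, the first table had a region on SLC1A3 with 53.4% in obese and 41.7% in lean pigs, which ends 30 bases past the upper end of the locus. On SLC27A6 it had one with 6.46% in obese and 18.3% in lean pigs, near the lower end of the locus. The looser table had a region at nearly the same place of SLC27A6, at 16.5% and 28.9%. This gene was the single member lower in obese pigs in either table. Most of all deposited RRBS regions were likewise higher in obese pigs, 403 of 610 in the first table and 1475 of 2416 in the looser one. The other regions of the looser table lay on the mitochondrial carriers SLC25A20, SLC25A22, SLC25A25, SLC25A34 and SLC25A37, with 13.6%, 33.3%, 17.5%, 40.4% and 12.9% in obese pigs and 3.54%, 12.7%, 5.37%, 25.4% and close to 0% in lean pigs. The region on SLC25A37 also lies on the locus of NKX2-6. None of these 7 genes without a captured region had an expression difference under the threshold.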

How the data were processed

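Members and gene lists were chosen with earlier results of these data known. Per the methods, the authors mapped RNAseq reads to Sscrofa10.2 with STAR 2.3.1 and estimated FPKM with Cufflinks 2.2.0 on Ensembl genes. Each deposited FPKM table was read per library, 52 entries that share an identifier were added together, and 9 genes with a failed estimate were not tested. FPKM values were divided by median-of-ratios size factors (0.693 to 1.23), both values of pig-572 entered as their mean, and log2(FPKM + 1) was tested with limma 3.58.1 (eBayes with a mean trend, R 4.3.3). Benjamini-Hochberg adjustment ran over all genes that passed the minimum of 1. Log2 differences on this scale understate changes of low genes. Depth cannot be read from FPKM. Permutation tests were exact and two-sided over all splits. Each p-value sets the difference between the groups against the variation between these pigs. In limma that variation is moderated over all genes tested.

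For mDNAcap, the deposited values are normalized counts that the authors obtained with diffReps 1.55.4, by G-test on sliding windows (1000 bases wide, moved by 100 bases, p-value limit of 0.0001). For RRBS, the authors mapped reads with Bismark 0.10 and Bowtie2 2.1.0, called regions with metilene, and deposited the group mean methylation as a fraction, shown here as percent. A region counted for a gene when it shared at least 1 base with the locus in the FPKM tables. The authors' own comparison columns (fold changes, p-values and q-values, and the table of hotspots) were not used. Labels give 13 obese and 10 lean samples for either methylation assay, and captured counts were used by the sides of the deposited comparison. Substrate classes follow common knowledge of the families. Named members are those without overlap, the 8 largest differences in each direction at an unadjusted p under 0.05, the 2 highest of each class and those with regions. The values of 2 such members are not reported here. The reference list of gene names gave another symbol for 4 members, no symbol for 22, and a solute carrier name to 17 further expressed identifiers that were not members. Loci of 24 members overlap another annotated locus. The script was tested on simulated data. Python 3.11.15 and matplotlib 3.10.9 drew the figures.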

Additional observations from a re-analysis of the deposited data

Results flagged for a closer look

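Each group of 5 pigs was checked for a single pig far from the others at the 32 named members with values in every pig, 64 groups in all. One group stood out, and chance marks about 5% of such groups. SLC17A5, the lysosomal sialic acid carrier, was 3.80 FPKM in obese pig-524, while the other 4 obese pigs lay between 2.12 and 2.48 FPKM. The gap to the nearest pig was 0.785 of the range of the group, against a critical value of 0.710.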

How the results depend on the processing

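Of the alternatives, 9 changed the scaling, the pseudocount, the filter, the libraries of pig-572 or the trend, and 10 left out 1 pig each (pig-572 with both libraries). Counts of members are set against 21 under the unadjusted threshold, 0 under the adjusted one and 3 without overlap, and a median difference of 0.03. Without size factors 1 member had no overlap, and 14 were under the unadjusted threshold, against 13.7% of all genes. At a minimum of 5 FPKM, which leaves 48 members, 11 were under the threshold, against 21.5% of all genes. There, 1 member had no overlap and the median difference was 0.11. Entered as if they were 2 animals, which they are not, the pig-572 libraries gave 1 member with an adjusted p under 0.05. Leaving out 1 pig gave 17 to 30 members under the unadjusted threshold, against 14.3% to 26.6% of all genes. It gave 0 under the adjusted one in every fit, and 3 to 10 without overlap, since fewer pigs have to be separated. Median differences ran from -0.0406 (without lean pig-525) to 0.0548 (without obese pig-473). The share of all genes without overlap was not counted under the alternatives, so these counts without overlap have no background here. At least 5 members had no overlap without any of the pigs except obese pig-433, with 4, and lean pig-577, with 3, and 10 had none without lean pig-402 or obese pig-473. The 30 came without lean pig-402, when 26.6% of all genes were under the threshold. In all, 15 of the 21 members kept their side in every such fit and 12 in each of the other alternatives that tested them. No named member with an unadjusted p under 0.05 changed direction. The looser RRBS table gave 10 regions where the stricter one gave 4, and 4 with loci extended by 5000 bases or with at least 0.5 of the region on the locus. For captured regions these alternatives gave 27 and 21 instead of 22. No paired analysis was possible because replicate numbers follow the order of the samples only.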
